A study of Arabidopsis thaliana with 2 samples.

Results

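Aliphatic glucosinolates are sulfur-rich compounds that Arabidopsis makes from methionine and stores in its leaves as a defence against chewing insects. Methionine is first lengthened in a cycle of added carbons, the lengthened amino acid is turned into the core glucosinolate, and the side chain is then modified. The transcription factors MYB28 and MYB29 activate the genes of this branch, and a parallel branch makes indole glucosinolates from tryptophan. The results below concern 9 loci of the aliphatic branch: MYB28, MYB29, MAM1, BCAT4, CYP79F1, CYP79F2, CYP83A1, FMO GS-OX3 and SOT18. They were taken by locus from the array's annotation, through the gene symbol or the transcript accession beside each probe. The 9 loci had 12 gene probes, among 26374 genes with a probe in all. A gene was tested if a probe of it carried the deposited flag P on both arrays, and its brightest such probe stood for it. Of the 9 loci, 8 were among the 16955 genes tested, and CYP79F2, flagged A on both arrays, was not.

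The transgenic line 35S:NROB #2 and wild-type plants, both of Arabidopsis thaliana accession Columbia-0, were compared in young leaves 30 days into growth. The series asks which transcripts differ in the transgenic line. The 35S prefix usually denotes a strong viral promoter active in most plant tissues. The labels name a single transgenic line and do not spell out NROB. Each of 2 Agilent two-colour arrays, labelled as biological replicates 1 and 2, received RNA of both genotypes. The labels do not say how many plants went into a replicate, and the spread given here is that between the 2 arrays.

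The transgenic RNA carried Cy3 and the wild-type RNA Cy5 on both arrays, so that genotype and dye cannot be told apart. No probe annotation held the name NROB, and the transgene was not checked. Median intensities of the tested genes were 1087 and 1246 in 35S:NROB #2, against 1092 and 1244 in wild type, on arrays 1 and 2. The 5 leaf mesophyll markers, RBCS1A, LHCB1.3, CA1, LHCB2.1 and RCA, were measured in both genotypes. Their summed intensities were 652766 and 594090 in 35S:NROB #2 and 628697 and 682138 in wild type. Of the 5, 3 were lower and 1 higher on both arrays, against 43.3% and 37.8% of all tested genes. By the brightest probe of each, their median log2 ratio was -0.18, from -0.47 (LHCB2.1) to 0.12 (LHCB1.3). Over all probes flagged P on both arrays, probe means ran from -0.75 to -0.27 for CA1 and from -0.47 to -0.05 for RCA. They ran from -0.59 to -0.47 for LHCB2.1, from -0.23 to 0.21 for RBCS1A and from 0.00 to 0.17 for LHCB1.3. None of the 7 flower, root and seed markers had a probe flagged P on both arrays: among them AP3, COBL9, CRU3 and SESA1 had intensities of 11.0 or less in every channel. PI, a floral gene, had 28.9 and 90.2 in 35S:NROB #2 and 6.21 and 7.49 in wild type. A probe of AG, another floral gene, had 44.6 and 58.4 in 35S:NROB #2 and 43.0 and 62.3 in wild type. That probe was flagged P on array 1 alone, and the other AG probe, flagged A on both arrays, had 42.3 or less. The root gene EXPA7 had 22.3 in 35S:NROB #2 on array 2 and 7.07 or less in the other channels. With 2 arrays the precision of all values below is limited. A log2 ratio is 35S:NROB #2 over wild type, and a mean ± SD is over the 2 arrays (n = 2).

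The transcripts of the 8 tested genes were all lower in the transgenic leaves, at between 50.6% (FMO GS-OX3) and 72.0% (SOT18) of wild type on average. Each of the 8 was lower on both arrays, a pattern shared by 43.3% of all tested genes. In each of them both 35S:NROB #2 intensities lay below both wild-type intensities, as they did for 30.1% of tested genes. The size of the difference was moderate. No member passed a mean 2-fold change with the same sign on both arrays, the study's own rule, which 2.84% of tested genes met in the lower direction and 4.82% in the higher. The ratios were tested with limma, a linear model that shares information on the spread across genes, with p values adjusted over all tested genes. No member passed at an adjusted p under 0.05 (0 of 8, against 0.254% of all tested genes and 0.0177% in the lower direction), whereas 8 of 8 had an unadjusted limma p under 0.05 with a lower value, as did 17.6% of all tested genes. The median mean log2 ratio of the 8 genes was -0.56, and that of all tested genes was -0.03. These counts cover the 8 tested genes and not CYP79F2.

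**Figure D1:**
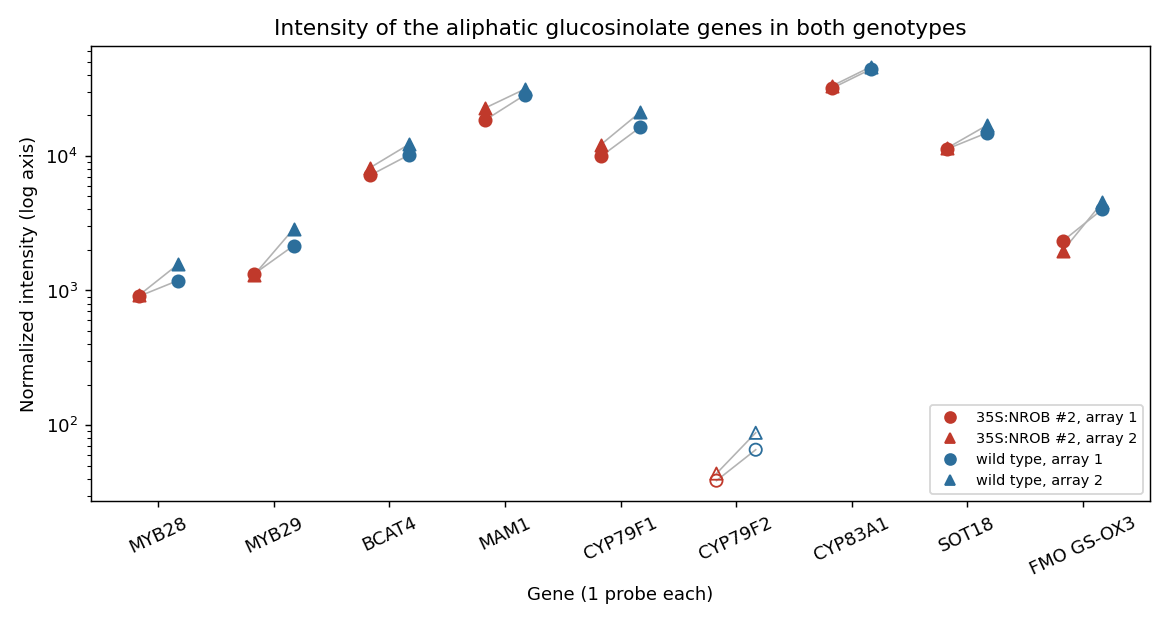
Normalized intensity (log axis) of 1 probe for each of the 9 loci, with 35S:NROB #2 in red left of wild type in blue, circles for array 1 and triangles for array 2, and grey lines joining the channels of an array. Every line climbs toward wild type, and the open symbols of CYP79F2 mark a probe flagged A on both arrays.

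MYB28 (AT5G61420), the principal activator of aliphatic glucosinolate genes, had intensities of 904 and 918 in 35S:NROB #2, against 1186 and 1564 in wild type. The transgenic values were close to each other, and the genotypes did not overlap. Its mean log2 ratio was -0.58 ± 0.27, with a 95% interval from -1.0 to -0.16 (limma adjusted p = 0.0996). MYB29 (AT5G07690), its close relative with a partly shared role, had 1330 and 1308 in 35S:NROB #2, against 2151 and 2865 in wild type. Both transgenic values were below both wild-type values, and the gap was wider on array 2. The mean log2 ratio of MYB29 was -0.91 ± 0.31, with an interval from -1.37 to -0.46 (limma adjusted p = 0.0705). The third activator of the family, MYB76 (AT5G07700), which lies next to MYB29 in the reference order of genes, was dimmer, with 150 and 164 in 35S:NROB #2 and 235 and 302 in wild type. Its log2 ratio of -0.76 ± 0.16 lay between those of MYB28 and MYB29 (limma adjusted p = 0.0687). MYB76 falls outside the rule for named genes and was chosen after its value was seen.

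The chain elongation cycle was represented by BCAT4 and MAM1. BCAT4 (AT3G19710), the aminotransferase that removes the amino group of methionine to start the cycle, had 7141 and 8131 in 35S:NROB #2, against 10158 and 12185 in wild type. The arrays gave nearly the same ratio, with a mean log2 ratio of -0.55 ± 0.05 (interval from -0.87 to -0.22, limma adjusted p = 0.0796). MAM1 (AT5G23010), the methylthioalkylmalate synthase that condenses the resulting keto acid with acetyl-CoA, was measured by 3 probes. Its brightest probe read 18454 and 22675 in 35S:NROB #2, against 28233 and 31228 in wild type. That probe had a mean log2 ratio of -0.54 ± 0.11 (interval from -0.88 to -0.20, limma adjusted p = 0.0848), and had the larger difference on array 1. The other two probes of MAM1 had it on array 2, with -0.61 and -0.62 on arrays 1 and 2 for one and -0.64 and -0.80 for the other. All 3 probes were lower on both arrays.

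CYP79F1 (AT1G16410), the cytochrome P450 that converts chain-elongated methionine to an oxime and so commits it to the pathway, had 9900 and 12104 in 35S:NROB #2, against 16272 and 21067 in wild type. Its log2 ratio was -0.76 ± 0.06 (interval from -1.08 to -0.43, limma adjusted p = 0.0637). A second probe, designed to another transcript record of the gene, gave -0.75 ± 0.03, with 1113 and 1334 in 35S:NROB #2 and 1897 and 2202 in wild type. The probes had nearly the same mean ratio although their intensities were far apart. CYP79F2 (AT1G16400), the adjacent copy known for taking the longest methionine derivatives, had 38.7 and 43.7 in 35S:NROB #2, against 65.7 and 87.8 in wild type. Its probe was flagged A on both arrays and the transgenic values lay near the floor of detection, so no fold change is given for it. Probe sequences were not used here, and how far the probes of CYP79F1 and CYP79F2 share signal was not tested.

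CYP83A1 (AT4G13770), which oxidises the methionine-derived oximes, was among the brightest genes on the arrays, with 98.7% of tested genes dimmer. It had 31717 and 32977 in 35S:NROB #2, against 44125 and 45928 in wild type. The log2 ratio was -0.48 on each array (SD 0.0011), with an interval from -0.80 to -0.16 that reflects the spread shared across genes in the fit (limma adjusted p = 0.0902). SOT18 (AT1G74090), a sulfotransferase that completes the core structure and prefers methionine-derived substrates, had 11267 and 11453 in 35S:NROB #2, against 14787 and 16819 in wild type. With a log2 ratio of -0.47 ± 0.11, SOT18 had the smallest difference of the 8 genes (interval from -0.81 to -0.13, limma adjusted p = 0.0984).

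FMO GS-OX3 (AT1G62560), a flavin monooxygenase that oxidises the sulfur of the side chain, had the largest difference of the 8. It had 2336 and 1980 in 35S:NROB #2, against 4005 and 4509 in wild type. The ratio of the genotypes was 0.439 on array 2 and 0.583 on array 1, and the genotypes did not overlap. The mean log2 ratio was -0.98 ± 0.29 (interval from -1.42 to -0.54, limma adjusted p = 0.0646), and 3.07% of all tested genes had a lower mean.

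**Figure D2:**
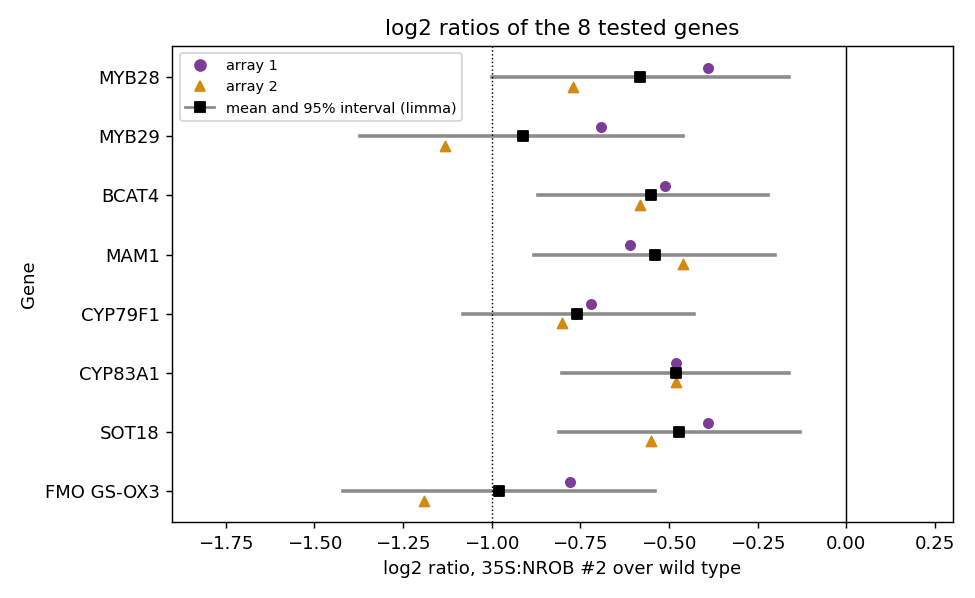
Log2 ratio of 35S:NROB #2 over wild type for the 8 tested genes, with circles for array 1, triangles for array 2, black squares for the mean and grey bars for limma's 95% interval. The solid line marks no difference and the dotted line a 2-fold lower value; all 8 intervals lie below 0 and no mean passes the dotted line.

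Among the 8 genes the mean log2 ratios ran from -0.98 to -0.47, and differences between the genes were not tested. Between 3.07% (FMO GS-OX3) and 14.6% (SOT18) of tested genes had a lower mean than a given member. MYB29, CYP79F1 and FMO GS-OX3 had the largest mean differences, and CYP83A1 and SOT18 the smallest. By the brightest probe, the difference was larger on array 2 in 7 of the 8 genes, as in 75.2% of all tested genes. On array 2 alone MYB29 and FMO GS-OX3 were more than 2-fold lower (log2 ratios of -1.13 and -1.19), and on array 1 alone none of the 8 was. The share of all tested genes past 2-fold on a single array was not counted, so these counts have no background beside them. The spread between arrays was at most 0.31 for MYB29, and 5 of the 8 genes had an SD below the median SD of all tested genes, 0.14.

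**Figure D3:**
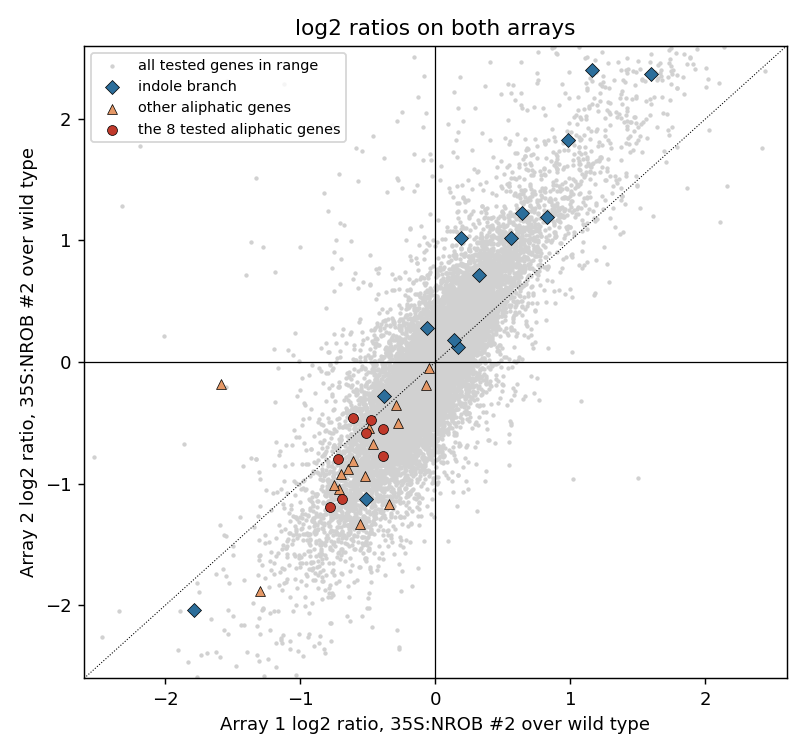
Log2 ratio of 35S:NROB #2 over wild type on array 1 (x axis) and array 2 (y axis) for the 8 tested aliphatic genes (red circles), other aliphatic genes (orange triangles), indole branch genes (blue diamonds) and all other tested genes with both ratios between -2.6 and 2.6 (grey). The red points lie where both ratios are below 0, and the dotted line marks equal ratios.

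Further genes of the aliphatic branch had the same direction. Of 19 such genes with a matched name, 16 were tested, and 16 of 16 were lower on both arrays, against 43.3% of all tested genes. Their median log2 ratio was -0.74, with members from -1.59 to -0.05. None passed limma (0 of 16 at an adjusted p under 0.05, against 0.0177% of all tested genes in the lower direction). At an unadjusted limma p under 0.05, 12 were lower (17.6% of all tested genes). The 2-fold rule was passed by 1 gene, against 2.84% of all tested genes in the lower direction. That gene was FMO GS-OX4 (AT1G62570), adjacent to FMO GS-OX3 and of the same enzyme family, with 379 and 291 in 35S:NROB #2 and 933 and 1070 in wild type. Its log2 ratio was -1.59 ± 0.41 (limma adjusted p = 0.0546). FMO GS-OX2 (AT1G62540), of the same gene cluster, had 369 and 187 in 35S:NROB #2 against 545 and 468 in wild type. Its log2 ratio was -0.95 ± 0.54 (limma adjusted p = 0.0934), whereas the mean of its second probe was -0.52. How far probes of these related genes share signal was not tested.

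The family was not uniform. FMO GS-OX1 stood at -0.52 ± 0.04, and FMO GS-OX5, whose locus lies elsewhere, had 2932 and 3525 in 35S:NROB #2 and 3038 and 3646 in wild type, a log2 ratio of -0.05 with an adjusted limma p of 0.779. SOT17, a sulfotransferase related to SOT18, stood at -0.13 ± 0.08. These genes, like those in the rest of the paragraph, were chosen after their values were seen. Genes that act beside BCAT4 and MAM1 in chain elongation included the isopropylmalate isomerase subunit genes AT2G43100 (-0.81 ± 0.16) and AT3G58990 (-0.88 ± 0.23), and BAT5, a plastid transporter of the keto acids (-0.71 ± 0.14). MAM3, next to MAM1, had 603 and 1314 in 35S:NROB #2 against 1812 and 1492 in wild type. Its log2 ratio was -1.59 on array 1 but -0.18 on array 2, so the mean of -0.89 rests on array 1. GSTF11, a glutathione transferase of the branch, stood at -0.88 ± 0.18. AOP3 and BZO1 were dim in every channel, at 13.4 or less, and no probe was matched to the locus of AOP2.

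Steps shared by both branches did not have this direction as a group. Of 8 shared genes, 3 were lower and 5 higher on both arrays, against 43.3% and 37.8% of all tested genes, with a median log2 ratio of 0.15. None passed limma (0 of 8), and 1 had an unadjusted limma p under 0.05, with a higher value, as did 15.5% of all tested genes. GGP1, a peptidase that processes the glutathione conjugate, had 32776 and 44843 in 35S:NROB #2 and 27598 and 26246 in wild type (log2 ratio 0.51 ± 0.37, limma adjusted p = 0.148), whereas the mean of its second probe was -0.02. GSH1, the first enzyme of glutathione synthesis, stood at 0.25 ± 0.27. On the lower side GTR1, a glucosinolate transporter, stood at -0.27 ± 0.06 and APK2, a kinase that supplies activated sulfate, at -0.21 ± 0.01.

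The indole branch is the nearest relative of the aliphatic one, and its genes were mostly higher. Of 14 tested, 10 were higher on both arrays (37.8% of all tested genes were) and 3 lower (43.3% of all were), with a median of 0.56. None passed limma (0 of 14). The 2-fold rule was passed by 4 higher genes and 1 lower gene, against 4.82% and 2.84% of all tested genes. An unadjusted limma p under 0.05 was found for 7 higher and 3 lower genes, where the shares of all tested genes were 15.5% and 17.6%. The difference of medians, aliphatic members minus indole genes, was -0.82 on array 1 and -1.55 on array 2. With 2 arrays an exact two-sided test by sign changes cannot go below p = 0.5, so the difference carries no test.

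**Figure D4:**
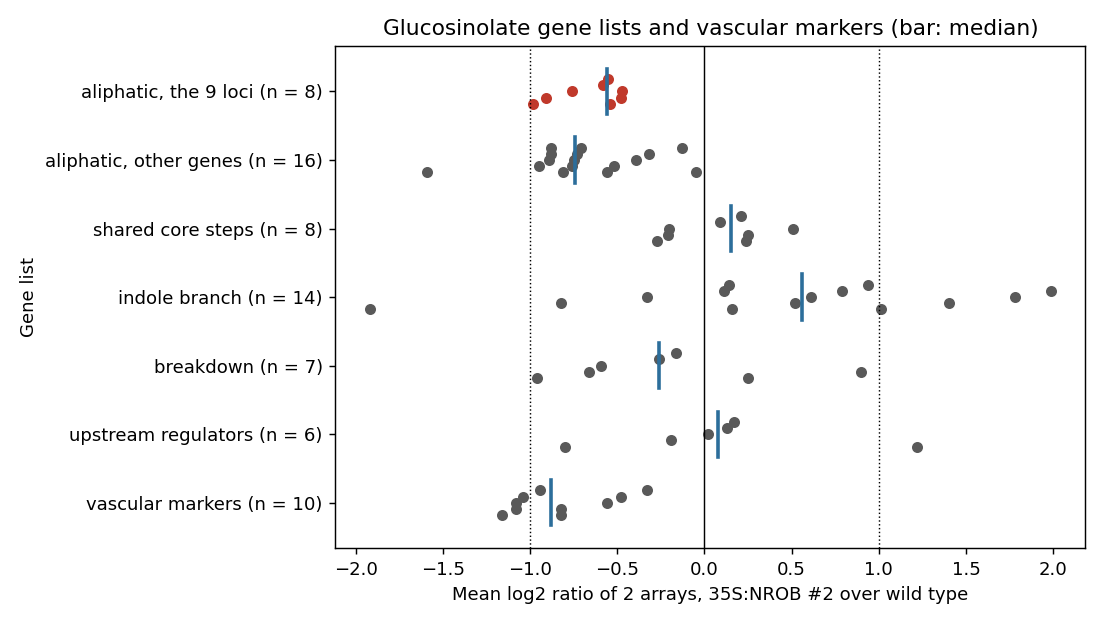
Mean log2 ratio of 35S:NROB #2 over wild type for every tested gene of each list (points) with the list's median (blue bar), the aliphatic members in red. Dotted lines mark 2-fold changes; the 8 members and the 16 other aliphatic genes lie left of 0, whereas shared and indole genes lie on both sides.

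Enzymes at corresponding steps of the branches can be set side by side, again without a test. CYP79F1 stood at -0.76, against 1.99 ± 0.55 for CYP79B2, which makes the oxime from tryptophan (limma adjusted p = 0.0546). CYP79B2 had 28948 and 51386 in 35S:NROB #2 and 9575 and 9908 in wild type. CYP79B3, which carries out the same step as CYP79B2, had 4900 and 6250 in 35S:NROB #2 and 5105 and 5134 in wild type, a log2 ratio of 0.11 ± 0.24 (limma adjusted p = 0.612). The log2 ratio of CYP79F1 minus that of the indole gene was -2.74 for CYP79B2 and -0.87 for CYP79B3. At the next step CYP83A1 stood at -0.48, against 1.01 ± 0.25 for CYP83B1, which oxidises the indole oxime and had 21196 and 28206 in 35S:NROB #2 and 11903 and 12341 in wild type. SOT18 stood at -0.47, against 0.79 ± 0.32 for SOT16, the sulfotransferase with preference for the indole substrate, which lies next to SOT18 in the reference order of genes. SOT16 had 25995 and 34387 in 35S:NROB #2 and 17598 and 16990 in wild type. The log2 ratio of SOT18 minus that of SOT16 was -0.96 on array 1 and -1.57 on array 2.

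Among the regulators, MYB51, an activator of the indole branch, stood at 1.40 ± 0.60, whereas MYB34, another activator of that branch, stood at -0.82 ± 0.44, close to MYB28 and MYB29. MYB122, a further activator of the indole branch, read 379 and 780 in 35S:NROB #2 and 6.28 and 5.54 in wild type, but its spots were flagged A and it was not tested. CYP81F2, which hydroxylates the indole ring, stood at 1.78 ± 0.87, and IGMT5, which methylates an indole product, at -1.92 ± 0.17 (985 and 907 in 35S:NROB #2, 3415 and 3723 in wild type).

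Genes that act on glucosinolates after synthesis went both ways. Of 7 breakdown genes, 4 were lower and 2 higher on both arrays, with a median of -0.26, where 43.3% and 37.8% of all tested genes were. None passed limma (0 of 7), and 3 lower and 1 higher had an unadjusted limma p under 0.05, with all-gene shares of 17.6% and 15.5%. The counts lower and higher on both arrays lie close to the shares of all genes and are not a result about the list. ESP, which directs breakdown toward epithionitriles and nitriles, had 10820 and 7893 in 35S:NROB #2 and 17107 and 18957 in wild type (-0.96 ± 0.43, limma adjusted p = 0.0781). NSP5, a nitrile-specifier protein, had 23260 and 30845 in 35S:NROB #2 and 14143 and 14587 in wild type (0.90 ± 0.26, limma adjusted p = 0.0670). The mean of its second probe was 0.60. PEN2, an atypical myrosinase acting on indole glucosinolates, stood at 0.25 ± 0.13. The myrosinase gene TGG2 had 47618 and 39208 in 35S:NROB #2 and 62495 and 74338 in wild type, a log2 ratio of -0.66 ± 0.38, and TGG1 stood at -0.59 ± 0.45.

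Upstream regulators had a median of 0.08 over 6 tested genes, of which 2 were lower and 2 higher on both arrays, near the shares of all tested genes (43.3% and 37.8%). None passed limma (0 of 6), and 1 lower and 1 higher gene had an unadjusted limma p under 0.05. The shares of all tested genes were 17.6% and 15.5%. SDI1, a sulfur-deficiency protein known to repress glucosinolate synthesis, had 651 and 475 in 35S:NROB #2 and 259 and 220 in wild type. Its log2 ratio of 1.22 ± 0.16 passed the 2-fold rule but not limma (adjusted p = 0.0516). IQD1, a calmodulin-binding protein known to promote glucosinolate accumulation, had 159 and 137 in 35S:NROB #2 and 225 and 293 in wild type (-0.80 ± 0.43, limma adjusted p = 0.0937). MYC2, a jasmonate-regulated factor that works with the MYB activators, differed in sign between the arrays (-0.27 and 0.60), and its relatives MYC3 and MYC4 stood at 0.02 ± 0.10 and -0.19 ± 0.08.

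Aliphatic glucosinolate genes are known to be expressed along leaf veins, and markers of vascular tissue were also lower in the transgenic leaves. All 10 vascular markers were lower on both arrays (against 43.3% of all tested genes), with a median log2 ratio of -0.88. None passed limma (0 of 10), and 9 were lower at an unadjusted limma p under 0.05, against 17.6% of all tested genes. The 2-fold rule was passed by 4 of the 10, all lower, against 2.84% of all tested genes in that direction. Their summed intensity was 22735 and 21594 in 35S:NROB #2, against 29055 and 33710 in wild type. The median of the aliphatic members was -0.56 on array 1 and -0.68 on array 2, and that of the vascular markers was -0.48 and -1.27. For the leaf mesophyll markers it was -0.01 and -0.39, and all these medians rest on the brightest probe of each gene. The phloem genes SUC2 and APL stood at -0.33 ± 0.11 and -0.48 ± 0.13, and the xylem genes IRX1 and IRX3 at -1.08 ± 0.62 and -1.08 ± 0.58. FLA11 and FLA12, the other markers past 2-fold, stood at -1.04 ± 0.44 and -1.16 ± 0.43. TGG1 and TGG2, also listed here as markers of myrosin cells, had a summed intensity of 101568 and 84618 in 35S:NROB #2 and 127927 and 159744 in wild type. The part of these cell types in the aliphatic result was not tested, and in whole leaves fewer cells of a type and less RNA per cell cannot be told apart.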

How the data were processed

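Each of 2 two-colour arrays held 1 sample of each genotype. The submitters' processing notes name Agilent Feature Extraction 8.5.1.1. Per the file headers, the deposited table holds a normalized intensity per channel and a log2 ratio with wild type on top. The sources used here do not give the authors' background correction or normalization. Signs were turned to 35S:NROB #2 over wild type. On array 2 the wild-type header also names NROB, and the deposited log2 ratio is reached with that column as wild type. The deposited flags P and A are not explained. In spots flagged A the dimmer channel did not exceed 50.1 (array 1) and 66.0 (array 2), so a gene bright in 1 genotype alone can be flagged A.

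Of 43603 gene probes, 36687 were given a locus through RefSeq's gene table (assembly TAIR10.1), which served for names and gene order. Probes flagged P on both arrays were kept (58.1%), and the brightest per gene was tested. An intercept was fitted to the 2 log2 ratios with limma 3.58.1 in R 4.3.3 (1 residual and 2.72 prior degrees of freedom). Adjustment by Benjamini-Hochberg covered all 16955 genes. Simulated ratios, drawn from the fit's own model of the spread, served to check the code. They cannot show whether that model suits these data.

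The members, lists and tests were chosen with earlier results of these data known. Genes named from the lists are those past the 2-fold rule and the 2 with the largest mean in each direction, and any other was chosen after its values were seen. UGT74C1 and SDI2 had no matching symbol in the reference table and were left out. Alternatives covered scaling, an offset, flags, intensity, probes, pairing of channels, the series matrix values and each array alone.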

Additional observations from a re-analysis of the deposited data

How the results depend on the processing

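The 8 genes were lower on both arrays under all 10 alternatives that used both arrays, with a median log2 ratio from -0.63 to -0.53, and none passed the 2-fold rule there. Only median centring, loess, quantile normalization, the offset and averaged probes changed any of these ratios. The remaining alternatives kept the same ratios for the 8 genes, so direction, median and fold count could not move there. Leaving out an array gave a median of -0.68 (array 2 alone) or -0.56 (array 1 alone) and 2 or 0 genes past 2-fold, those 2 being MYB29 and FMO GS-OX3. The matching share of all tested genes on a single array was not counted. The aliphatic minus indole median lay between -1.55 and -0.82 with 1 array, and between -1.17 and -1.07 under the other alternatives.

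Whether a gene passed limma depended on the setting. With the channels unpaired (no replicate block) 3 of the 8 passed: CYP79F1 (limma adjusted p = 0.0161), FMO GS-OX3 (0.000869) and MYB29 (0.00236). In that setting 2943 of the 16955 tested genes passed, 1469 of them lower. Of all tested genes, 738 passed with an offset of 50 (216 lower) and 989 with quantile normalization (342 lower). Of the 8, CYP79F1 alone passed with that offset (limma adjusted p = 0.0499) and with quantile normalization (0.0475). Over the 10 alternatives its adjusted p ran up to 0.0843. The other five genes passed in none of the 10. Across the tested genes, 43 passed, 93.0% of them higher. The count was 709 after median centring (74.6% higher), 483 after loess (81.2%), 989 after quantile normalization (65.4%) and 738 with the offset. It was 27 where a P flag on 1 array sufficed, 1532 with every gene probe, 321 above the lower quartile of intensity, 610 with probes averaged per gene and 2943 unpaired (50.1% higher). The cause of these shifts was not tested. Dim signal limits CYP79F2, whose probe was flagged A on both arrays.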

Other observations

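Among tested genes outside the lists, those whose 2 log2 ratios lay closest to the median of the 8 aliphatic genes (-0.56 on array 1 and -0.68 on array 2) were AT2G29970 (-0.57 and -0.68), AT2G21960 (-0.55 and -0.69) and AT2G45870 (-0.56 and -0.69), by Euclidean distance over the 2 arrays. In all, 140 genes (0.829%) lay within a distance of 0.1. Neighbouring genes in the reference order did not always share a direction: APK2 (-0.21 ± 0.01) lies next to CYP79B2 (1.99 ± 0.55), and 1 gene separates SOT17 (-0.13 ± 0.08) from MYB51 (1.40 ± 0.60).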
